A study of Mus musculus with 57 samples.

Results

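Lewis lung carcinoma tumours of old mice that had received fractionated protons were compared with tumours of old mice on the same schedule of sham exposures. The irradiated group held 10 tumours (labelled LLC Tumor_Old_0.5Gyx3Proton) and the sham group 9 (LLC Tumor_Old, 0Gyx3), so 19 of the 57 arrays of the series entered the comparison. The irradiated mice were given 3 fractions of 0.5 Gy and the sham mice 3 fractions of 0 Gy. Hosts of both groups are labelled male and old, and the labels give neither an age in weeks nor a strain or an allele. Every tumour grew from the same transplanted cell line, and total RNA of 1 tumour piece was hybridised to 1 Illumina Mouse WG-6 array. The other arrays, used for context, held adolescent tumours of the same 2 treatments (10 irradiated and 9 sham), 9 adolescent and 10 old tumours of a sham schedule labelled acute. No label ties tumours to a shared cage, irradiation or processing day, so the p-values measure the spread between these tumours.

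Lewis lung carcinoma is a cancer line of mouse lung that, once transplanted under the skin or into the lungs, grows with host vessels, fibroblasts, macrophages and neutrophils inside the tumour. Protons, like other ionising radiation, break both strands of DNA. Cells answer with break repair, with a transcriptional programme under p53 that can halt the cell cycle or start apoptosis, and in many settings with type I interferon signalling set off by DNA in the cytosol. Array levels below are log2 intensities, so a difference of 1 is a doubling, and each difference is irradiated minus sham. A probe was called when its Benjamini-Hochberg adjusted p from limma was under 0.05.

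Sham replicates 6 and 7 stood apart from the other 17 arrays and are shown before any result. The first principal component, with 48.8% of the variance, placed them at 106 and 129 and the others between -34.5 and 4.23. Their levels of Cyp2f2, a cytochrome P450 of airway club cells, were 13.49 and 13.97, against 4.82 to 5.60 in the other sham tumours and 4.72 to 5.72 in the irradiated ones. Ager, a receptor abundant in alveolar type I cells, stood at 11.88 and 12.50 in these tumours and at 4.57 to 5.74 in the other 17. The endothelial junction gene Cldn5 reached 12.95 and 13.82, above the 5.41 to 9.07 of the rest. Lower than elsewhere were Arg1, an arginase of tumour-associated macrophages, at 7.16 and 5.66 against 9.39 to 11.81, and the matrix proteoglycan Lum, at 9.54 and 5.43 against 10.42 to 12.51. Xist, the RNA of the inactive X chromosome, was at 7.84 and 5.46 in the pair of tumours and between 7.86 and 10.38 elsewhere. Every host is labelled male, and the source of the higher Xist levels in the other 17 was not tested. The Y-linked Eif2s3y stood at 7.06 and 7.37 in the pair and at 4.46 to 5.71 elsewhere at its kept probe. Its other probe and those of Kdm5d, also Y-linked, were detected on no array. The 6 genes before Eif2s3y, and Eif2s3y itself, were chosen after their values were seen. Across the endothelial marker list (16 genes, 27 probes) the mean level was 8.36 and 8.80 in the pair, 5.82 to 6.02 in the other sham tumours and 5.66 to 6.12 after protons. Differences are therefore given with these arrays (the 19-array fit) and without them (the 17-array fit, 10 irradiated against 7 sham tumours), in that order where 2 values stand side by side.

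**Figure D1:**
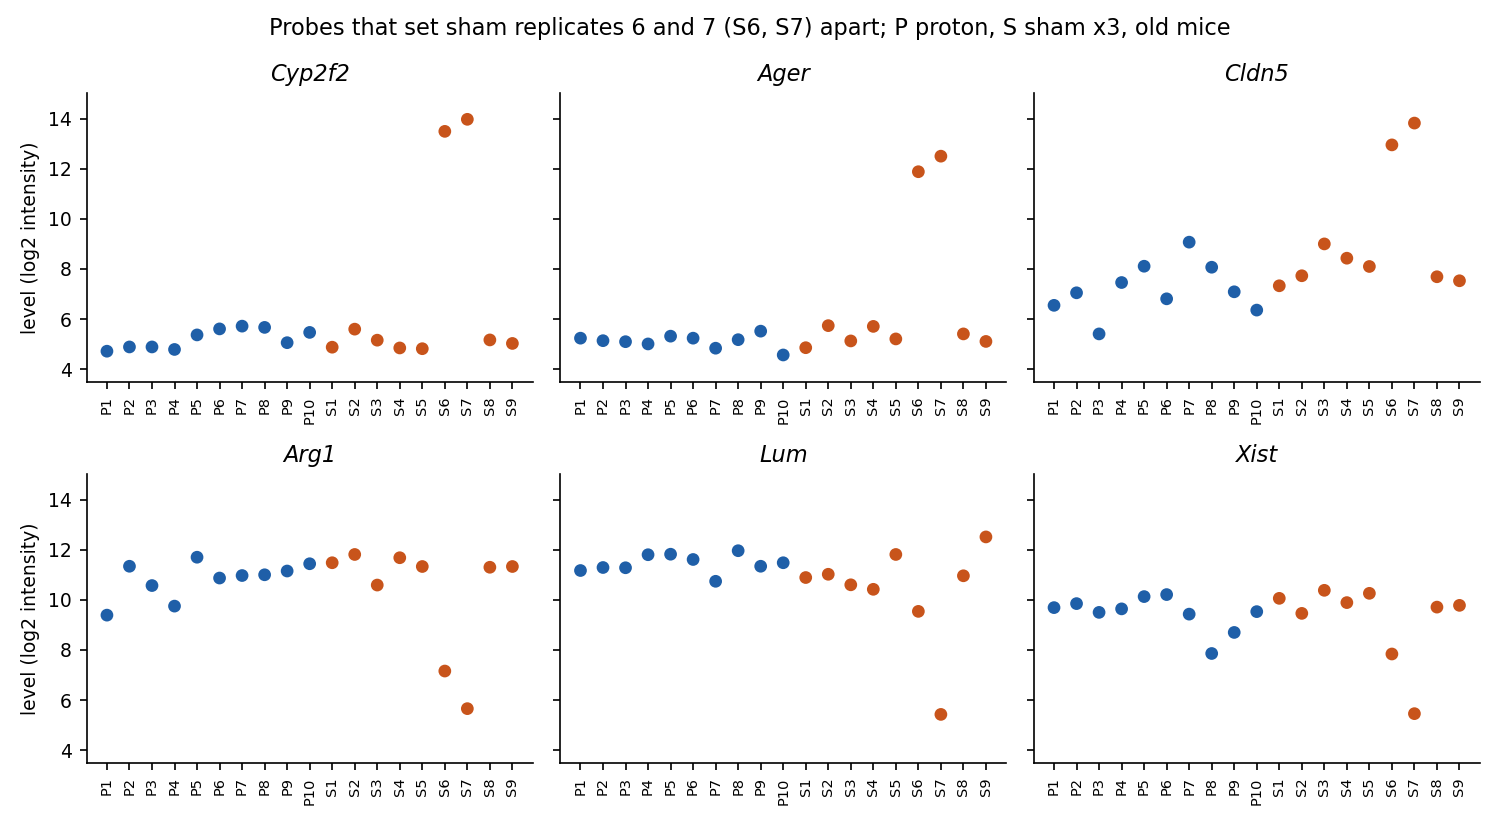
Level of 6 genes on each of the 19 arrays (y axis, log2 intensity; x axis, P1 to P10 irradiated and S1 to S9 sham x3 tumours of old mice). The genes Cyp2f2, Ager and Cldn5 are higher, and Arg1 and Xist lower, in S6 and S7 than in the other sham tumours, while Lum is at 9.54 in S6 and 5.43 in S7.

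In the 19-array fit, 1852 of the 15861 probes kept were higher after protons (11.7%) and 1064 were lower (6.71%). They represented 1289 and 775 genes, and the median size of a called log2 difference was 0.62. Leaving out sham replicates 6 and 7 gave 1397 probes higher (8.81%) and 1395 lower (8.80%), so the excess of rises over falls went with these arrays. Both fits called 1196 probes higher (7.54%) and 782 lower (4.93%), which is 67.8% of the calls of the first fit and 70.8% of those of the second, and no probe was called in opposite directions. Among the probes called in both fits, 88 rose and 21 fell by over 1 log2 unit in each. Complete separation of the groups was rare, with 39 probes whose levels did not overlap among the 19 arrays (0.246%) and 64 among the 17 (0.404%). The median difference over all probes was 0.02 with all arrays and -0.03 without the pair.

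The number of calls rested on more than sham replicates 6 and 7. Over the 1196 rises, sham replicate 9 averaged 0.68 above the mean of sham replicates 1 to 5, 8 and 9, a value among those of the irradiated tumours (0.31 to 0.93), while sham replicates 1 to 5 and 8 averaged -0.31 to 0.04. Its mean over the 782 falls was -0.47, and the other sham tumours that remained averaged -0.07 to 0.20. Irradiated replicates 5, 6 and 7 lay nearest to the sham group for the rises, at 0.31, 0.31 and 0.32, against 0.69 to 0.93 for the other 7. Without sham replicate 9 there were 2793 higher and 1698 lower probes, and without replicates 6, 7 and 9 there were 2610 (16.5%) and 2593 (16.3%), of which 1972 were among the 1978 called in both fits. The descriptions number the irradiated tumours 0 to 6 and 69 to 71 and the sham tumours 73 and 91 to 98, with no explanation, so irradiation cannot be told apart from whatever these numbers record. With the 7 irradiated tumours numbered 0 to 6 alone, 292 probes were higher and 238 lower. The share of probes detected was 35.6% ± 1.96 (SD, n = 10) after protons and 35.9% ± 3.02 (SD, n = 9) in sham tumours (two-sided exact permutation p = 0.818). Median scaling in place of quantile normalization turned the split to 76 higher and 2056 lower with a median shift of -0.21, and rank-invariant scaling gave 2229 and 714 with a shift of 0.09, so directions below are relative to quantile-normalized arrays.

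**Figure D2:**
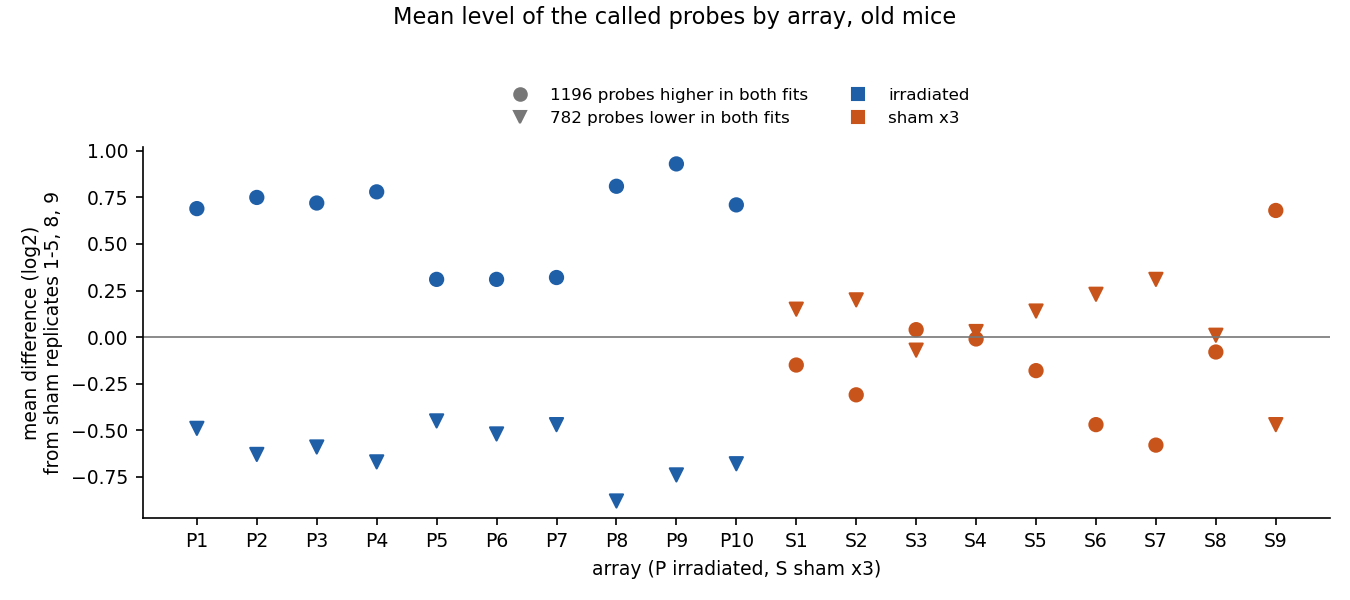
Mean log2 difference of each array from sham replicates 1 to 5, 8 and 9 (y axis) over the 1196 probes higher (circles) and the 782 lower (triangles) in both fits, by array (x axis, P irradiated and S sham x3). S9 sits at 0.68 and -0.47, among the irradiated tumours, and P5, P6 and P7 have the smallest rises of the irradiated group; the probes were chosen by this comparison, so the separation itself is no test.

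Old sham x3 tumours also differed from the old sham tumours of the acute schedule, and the 2 sets of controls give different contrasts with the same irradiated tumours. Against the 10 acute tumours, whose irradiated arrays are shared with the main comparison, 1833 probes were higher (11.6%) and 1784 lower (11.2%). The totals do not say that the same probes were called. For 75 of the probes named by rule, chosen for the text, the value against acute controls is given wherever its sign was opposite. The labels give the acute tumours a 0 Gy source, and 9 of the 10 descriptions give no dose. Schedule, processing and any effect of irradiation cannot be told apart between these contrasts.

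The largest rise among named genes called in both fits was that of Ide. Ide, the insulin-degrading enzyme, had levels from 7.10 to 9.66 (median 8.29) after protons and from 4.91 to 8.28 (median 5.93) in sham tumours. Its highest sham level was that of replicate 9, and without that array the groups did not overlap. The log2 difference was 2.19 ± 0.36 (SE; adjusted p = 0.00255) with 19 arrays and 1.92 ± 0.35 (adjusted p = 0.00585) with 17, whereas against acute controls it was -0.42 (adjusted p = 0.189). The other 2 kept Ide probes were not called and stood at -0.04 and 0.33 with 17 arrays (adjusted p = 0.825 and 0.115). Alyref, an mRNA export adaptor, ran from 9.50 to 10.97 (median 10.75) after protons and from 7.80 to 10.66 (median 8.35) in sham tumours. Sham replicate 9, at 10.66, was again the sham tumour inside the irradiated range, and the other 8 lay below it. Its difference was 1.88 ± 0.30 (adjusted p = 0.00255) and 1.67 ± 0.30 (adjusted p = 0.00529), and its second probe rose by 1.50 in the 17-array fit. Against acute controls Alyref stood at -0.33 (adjusted p = 0.134).

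Myc, the transcription factor that drives growth and ribosome production, ranged from 6.76 to 10.08 (median 8.03) after protons and from 4.67 to 7.87 (median 6.26) in sham tumours. The ranges overlapped, with sham replicate 9 highest and replicates 6 and 7 lowest of their group. Myc rose by 1.79 ± 0.40 (adjusted p = 0.00699) in the 19-array fit and 1.43 ± 0.37 (adjusted p = 0.0162) in the 17-array fit, and it was at -0.61 against acute controls (adjusted p = 0.126). Srm, spermidine synthase and a classical MYC target, rose by 1.69 ± 0.46 and 1.14 ± 0.36. Smarcc1, a subunit of SWI/SNF chromatin remodellers, rose by 1.79 ± 0.45 and 1.50 ± 0.45, from a sham median of 5.74 to 8.15 after protons. Msn, which encodes moesin and ties actin to the membrane, went from a sham median of 6.86 to 9.46, with differences of 1.85 ± 0.49 and 1.72 ± 0.53. Gsn, the actin-severing gelsolin, rose by 1.64 ± 0.37 and 1.30 ± 0.35. Erg28 of sterol synthesis rose by 1.83 ± 0.42 and 1.56 ± 0.42, and Aup1, a protein of lipid droplets and endoplasmic reticulum degradation, by 1.77 ± 0.41 and 1.55 ± 0.42. Neither fit called the other kept probes of Erg28 (0.01 and 0.03 with 17 arrays), Aup1 (0.18) and Msn (0.09 and -0.19). Ybx3, a cold-shock domain protein that binds RNA, rose by 1.74 ± 0.44 and 1.53 ± 0.46 but was detected in 3 of 9 sham tumours and 9 of 10 irradiated ones. Calu, a calcium-binding protein of the secretory pathway, rose by 1.56 ± 0.40 and 1.12 ± 0.34, and Tgif1, a repressor in the TGF-beta pathway, by 1.55 ± 0.33 and 1.29 ± 0.32. Sham replicate 9 was the highest sham tumour for every gene of this paragraph. Against acute controls, Msn (-0.99), Gsn (-0.71), Srm (-1.06), Calu (-0.57) and Ybx3 (-1.83) were called lower after protons (adjusted p = 0.045, 0.0268, 0.00666, 0.0441 and 0.00142). Smarcc1 (-0.47), Erg28 (-0.55), Aup1 (-0.09) and Tgif1 (-0.10) also had the opposite sign there, without a call (adjusted p = 0.291, 0.206, 0.865 and 0.804).

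The genes with the smallest adjusted p among the rises of the 17-array fit were led by Plp2. Plp2, a proteolipid of the endoplasmic reticulum, stood at 9.71 to 10.36 (median 9.99) in irradiated and 8.52 to 9.53 (median 8.89) in sham tumours. The ranges did not touch, replicates 6, 7 and 9 included. It rose by 1.13 ± 0.14 (adjusted p = 0.000207) and 1.11 ± 0.14 (adjusted p = 0.000609), and was also higher against acute controls, by 0.63 (adjusted p = 0.000999). Tspan4, a tetraspanin, rose by 0.57 ± 0.09 and 0.52 ± 0.09 with separate ranges and by 0.53 against acute controls (adjusted p = 0.000882). Cpsf1, which reads the polyadenylation signal, rose by 0.71 ± 0.11 and 0.66 ± 0.11, and by 0.72 against acute controls (adjusted p = 0.000877). Pld3, a lysosomal nuclease, gained 0.98 ± 0.14 and 0.96 ± 0.15, with 0.44 against acute controls (adjusted p = 0.00616). The ribosome assembly factor Wdr46 gained 1.24 ± 0.20 and 1.07 ± 0.18, with 0.33 against acute controls (adjusted p = 0.037), and both of its probes moved the same way. Hspbp1, a co-chaperone of HSP70, rose by 1.24 ± 0.18 with 19 arrays (17-array adjusted p = 0.0037), and the glutathione transferase Gstp1 by 1.45 ± 0.23 and 1.50 ± 0.25. Myl12b, a myosin light chain, rose by 0.95 ± 0.15 and 0.91 ± 0.16. The enolase copy Eno1b rose by 1.09 ± 0.21 and 0.80 ± 0.13, and its probe may not tell it from Eno1, of which it is a near copy.

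Falls were led by genes whose levels hardly overlapped between the groups. Dock10, an activator of the small GTPases CDC42 and RAC, was at 4.76 to 6.19 (median 5.57) after protons and 6.49 to 7.91 (median 7.14) in sham tumours. No irradiated tumour reached the lowest sham tumour, which was replicate 9. Dock10 fell by 1.72 ± 0.20 (adjusted p = 0.000207) with 19 arrays and by 1.72 ± 0.22 (adjusted p = 0.000609) with 17, and was lower against acute controls as well (-0.77, adjusted p = 0.00807). Dnajc7, a co-chaperone of HSP70 and HSP90, had levels of 7.27 to 7.93 (median 7.85) against 8.10 to 9.06 (median 8.83). Its ranges were also separate, although sham replicate 9, at 8.10, was the nearest sham tumour. It fell by 1.05 ± 0.12 (adjusted p = 0.000207) and 1.07 ± 0.13 (adjusted p = 0.000609), and against acute controls it stood at 0.17 (adjusted p = 0.249). Camk2d, a calcium/calmodulin-dependent kinase, fell by 1.07 ± 0.14 and 1.13 ± 0.14 at its most altered probe. Of its other 5 kept probes, 1 also fell in both fits (-0.52 and -0.49, adjusted p = 0.00883 and 0.0152), and 1 was higher with 19 arrays (0.60, adjusted p = 0.025) but not called with 17 (0.45, adjusted p = 0.069). Atf5, a transcription factor of stress responses, dropped by 1.36 ± 0.20 and 1.36 ± 0.22, and was -0.56 against acute controls (adjusted p = 0.0151). Kmt5c, a methyltransferase of histone H4, fell by 1.14 ± 0.18 and 1.22 ± 0.20, and was -0.83 against acute controls (adjusted p = 0.000209). Of the RNA-binding genes, Ddx6 fell by 1.01 ± 0.21 and 0.70 ± 0.11 and Fxr2 by 0.92 ± 0.17 and 1.06 ± 0.17. Neither fit called the other kept probes of Ddx6 (-0.23, -0.06 and 0.08 with 17 arrays) and Fxr2 (-0.01). Dock9, a CDC42 activator, fell by 1.16 ± 0.18 and 0.95 ± 0.14 and the casein kinase Csnk1g1 by 1.26 ± 0.19 and 1.27 ± 0.21, both with separate ranges. The predicted genes Gm10125 and Gm7609 fell by 1.46 ± 0.19 and 1.35 ± 0.19, and by 1.52 ± 0.23 and 1.50 ± 0.25. Csnk1g1 (0.67), Gm7609 (0.40), Gm10125 (0.09) and Dock9 (0.03) had the opposite sign against acute controls, without a call (adjusted p = 0.077, 0.145, 0.572 and 0.815).

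**Figure D3:**
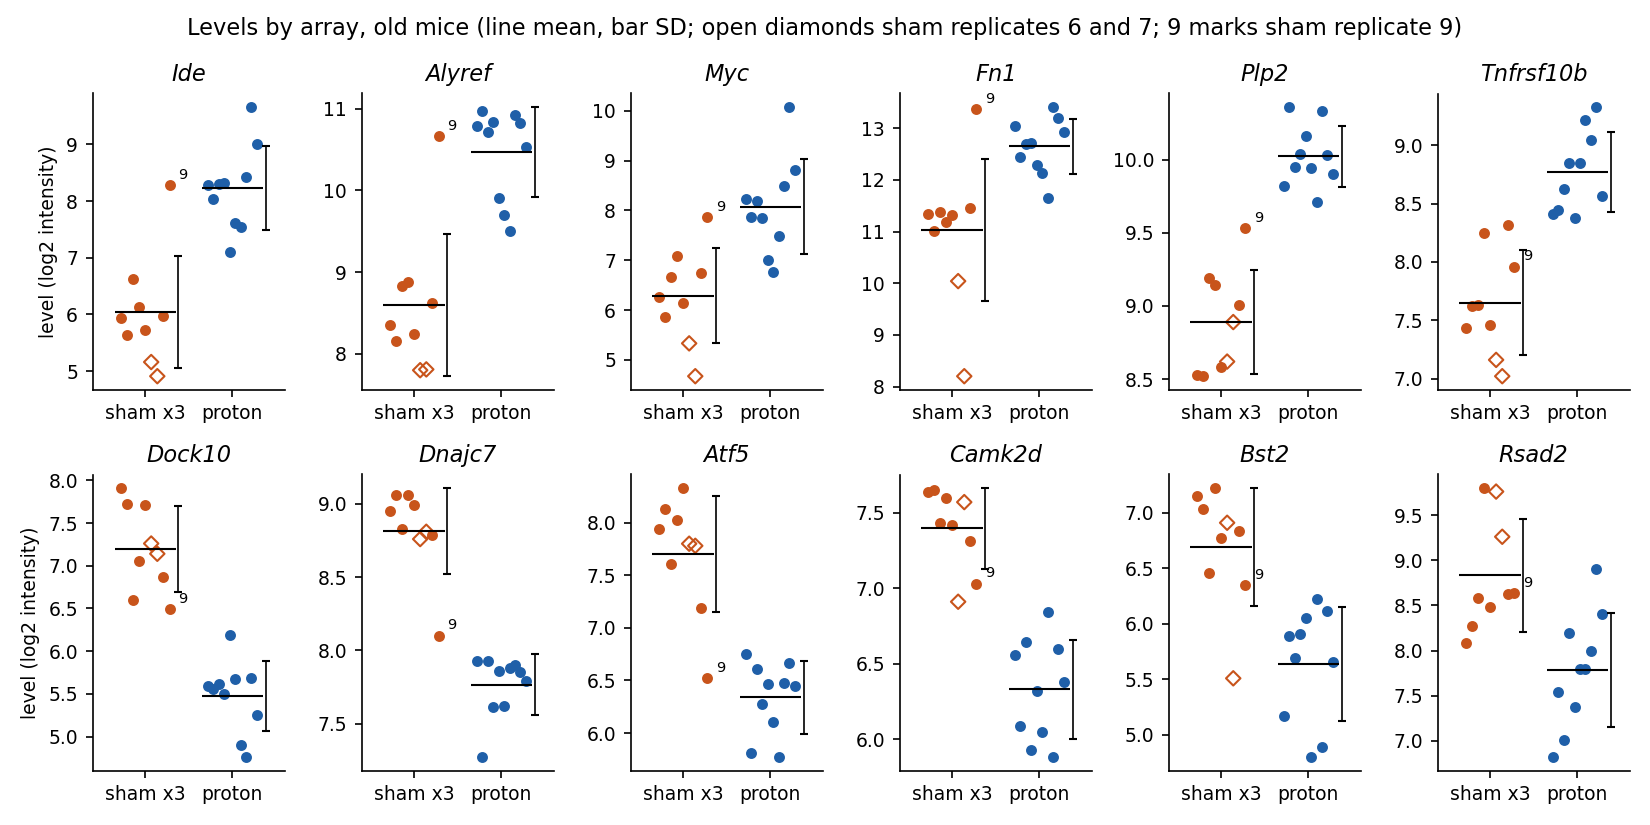
Level of 12 genes (y axes, log2 intensity) in each sham x3 and each proton-irradiated tumour of old mice; lines are group means, bars SD, open diamonds sham replicates 6 and 7, and the digit 9 marks sham replicate 9. Plp2, Tnfrsf10b, Dock10, Dnajc7 and Camk2d have no overlap between groups, while for Ide, Alyref and Myc sham replicate 9 lies among the irradiated tumours.

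Several of the largest falls were carried by sham replicates 6 and 7 and shrank without them. Podxl, a sialomucin of vessels and podocytes, was at 9.88 and 9.36 in that pair and 5.69 to 6.69 in the other sham tumours, and its difference went from -1.47 ± 0.43 to -0.75 ± 0.15. Ptprb, the vascular endothelial phosphatase, went from -1.43 ± 0.48 to -0.60 ± 0.18, and Flt1, a VEGF receptor, from -1.34 ± 0.45 to -0.61 ± 0.20. The endothelial factor Egfl7 went from -1.45 ± 0.50 to -0.60 ± 0.14, and the epithelial cadherin Cdh1 from -1.35 ± 0.44 to -0.58 ± 0.12. Hgf, the hepatocyte growth factor made by stromal cells, went from -1.08 ± 0.30 to -0.59 ± 0.16 and Dpysl2, a microtubule regulator, from -1.43 ± 0.30 to -0.94 ± 0.18. Among leukocyte genes, the receptor Lilra6 went from -1.50 ± 0.29 to -1.10 ± 0.19 and the actin regulator Abi3 from -1.38 ± 0.45 to -0.66 ± 0.20. Cytoglobin, Cygb, a globin of fibroblast-like cells, went from -1.37 ± 0.40 to -0.81 ± 0.27, and Tm6sf1 from -1.42 ± 0.28 to -0.99 ± 0.17. Each of these was called in both fits at the probe given. The other kept probes of Tm6sf1 (0.21 with 17 arrays), Dpysl2 (-0.16) and Egfl7 (-0.14) were called in neither. Against acute controls, Podxl (0.03), Cdh1 (0.01), Hgf (0.02), Lilra6 (0.31), Abi3 (0.14), Cygb (0.29) and Tm6sf1 (0.27) had the opposite sign, without a call (adjusted p = 0.926, 0.976, 0.947, 0.338, 0.65, 0.491 and 0.287). The 19-array calls of Egfl7, Ptprb, Flt1, Cdh1 and Abi3 were lost on leaving out any 1 of 16, 14, 12, 9 and 6 single arrays, with adjusted p of 0.0502 to 0.0871 when lost. In a tumour piece, fewer cells of a type and less RNA per cell cannot be told apart.

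A subset of genes induced by type I interferon was lower after protons than in sham x3 tumours. Many antiviral genes carry the interferon-stimulated response element in their promoters and are switched on when interferon binds its receptor. Of 28 kept probes of the list (21 of 30 genes), 7 were lower and none higher with 19 arrays, where 6.71% of all probes were lower. With 17 arrays 8 were lower, where 8.80% of all probes were. The median difference of the list was -0.25 and -0.16, against 0.02 and -0.03 over all probes. Without sham replicates 6, 7 and 9, 6 probes were lower and 2 higher, where 16.3% and 16.5% of all probes were. The list median there was -0.05, against -0.04 over all probes. The 6 genes called in both fits were Bst2, Cmpk2, Isg15, Oas2, Oasl2 and Rsad2. Bst2, tetherin, which holds budding viruses at the cell surface, ran from 4.80 to 6.22 (median 5.79) after protons and from 5.51 to 7.22 (median 6.84) in sham tumours. The lowest sham tumour was replicate 7, and without it the groups did not overlap. Bst2 fell by 1.05 ± 0.22 (adjusted p = 0.00594) and by 1.19 ± 0.20 (adjusted p = 0.00391). Rsad2, viperin, an antiviral enzyme, was at 6.82 to 8.90 (median 7.80) and 8.08 to 9.80 (median 8.63), with overlap, and fell by 1.05 ± 0.27 and 0.86 ± 0.27. The 2-5A synthetase Oas2 fell by 1.07 ± 0.29 and 0.83 ± 0.28 and the nucleotide kinase Cmpk2 by 1.02 ± 0.25 and 0.71 ± 0.19. Isg15, a ubiquitin-like modifier, averaged 5.47 ± 0.51 after protons (SD, n = 10) and 6.20 ± 0.40 in sham tumours (SD, n = 9), and Oasl2, of the same family as Oas2, 7.41 ± 0.44 and 8.28 ± 0.68. Isg15 fell by 0.73 ± 0.20 and 0.80 ± 0.21 and Oasl2 by 0.88 ± 0.24 and 0.60 ± 0.20, and they are named because they complete the set called in both fits, a choice made after values were seen. The regulators Stat2, Irf7 and Irf9 of the list were not called with 19 arrays. Stat2 stood at -0.22 ± 0.17, Irf7 at -0.35 ± 0.23 and the 2 Irf9 probes at -0.26 ± 0.17 and 0.49 ± 0.18 (adjusted p = 0.368, 0.296, 0.289 and 0.0642). Irf1, a regulator in the separate interferon gamma list, fell by 0.59 ± 0.11 and 0.48 ± 0.10 at its brightest probe (adjusted p = 0.00433 and 0.00718). Its other kept probes were called in neither fit. Against acute controls none of the 28 probes was called lower, and Bst2 stood at 0.02 (adjusted p = 0.969) and Rsad2 at -0.38 (adjusted p = 0.254). With the irradiated tumours numbered 0 to 6 alone, 3 probes were lower, where 238 of all 15861 probes were.

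The promoters of 3 of these genes are shown because they carry the response element itself. Windows of 300 bases, from 250 before to 50 after the start site, were taken from RefSeq on GRCm38.p6 and searched on both strands for GAAA, any 2 bases and GAAA again, the core of the interferon-stimulated response element. It occurred in 3.44% of 32851 promoters, and 3.99% of 27025 genes had a promoter with it. Of the 21 kept genes of the list, 15 had a promoter entry and 7 of these held the motif. Among the called genes, Bst2 (chr8:71537423-71537722, minus strand), Isg15 (chr4:156200769-156201068, minus strand) and Rsad2 (chr12:26456403-26456702, minus strand) held it, while the windows of Cmpk2 and Oasl2 did not hold these letters. Capitals mark the matches, which overlap in Bst2 and Isg15 and lie on the opposite strand in Rsad2. They begin at -130 and -124 in Bst2, at -78, -72 and -66 in Isg15 and at -120 in Rsad2, counted from the start site. A match is a description of the letters and not evidence of binding.
Bst2: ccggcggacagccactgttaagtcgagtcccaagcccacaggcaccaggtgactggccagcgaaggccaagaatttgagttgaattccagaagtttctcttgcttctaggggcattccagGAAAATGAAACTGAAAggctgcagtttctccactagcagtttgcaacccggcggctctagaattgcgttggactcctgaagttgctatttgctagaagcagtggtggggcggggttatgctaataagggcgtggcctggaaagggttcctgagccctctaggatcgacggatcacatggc
Isg15: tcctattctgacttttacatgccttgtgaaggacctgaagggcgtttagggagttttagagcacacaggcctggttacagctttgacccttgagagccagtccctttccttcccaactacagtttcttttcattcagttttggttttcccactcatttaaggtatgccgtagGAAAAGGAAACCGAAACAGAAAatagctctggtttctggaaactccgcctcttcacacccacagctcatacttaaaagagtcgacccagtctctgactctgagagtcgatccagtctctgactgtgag
Rsad2: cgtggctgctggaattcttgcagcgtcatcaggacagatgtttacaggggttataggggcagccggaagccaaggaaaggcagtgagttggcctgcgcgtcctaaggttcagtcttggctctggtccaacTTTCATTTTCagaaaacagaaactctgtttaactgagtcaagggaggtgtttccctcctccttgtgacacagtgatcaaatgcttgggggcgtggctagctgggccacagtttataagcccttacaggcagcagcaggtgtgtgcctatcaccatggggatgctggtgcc

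Few targets of p53 were called higher. Of 40 kept probes (23 of 29 genes), 2 were higher and 2 lower with 19 arrays, and 2 higher and 7 lower with 17, with medians of -0.04 and -0.09. Over all probes, 11.7% and 8.81% were higher and 6.71% and 8.80% lower. Both genes called higher were Tnfrsf10b and Gadd45a. Tnfrsf10b, the mouse TRAIL death receptor, was at 8.38 to 9.33 (median 8.74) after protons and 7.02 to 8.32 (median 7.62) in sham tumours. Its groups did not overlap, and it rose by 1.13 ± 0.18 (adjusted p = 0.00226) and 0.98 ± 0.17 (adjusted p = 0.00391), with 0.56 against acute controls (adjusted p = 0.00552). Another of its 3 kept probes stood at -0.50 in the 17-array fit. Gadd45a, a stress protein of growth arrest, rose by 0.85 ± 0.24 and 0.56 ± 0.18, but was -0.65 against acute controls (adjusted p = 0.00206). Bbc3, which encodes the apoptosis inducer PUMA, ran from 6.82 to 7.52 (median 7.07) after protons and from 7.18 to 8.71 (median 7.95) in sham tumours. Its 3 lowest sham tumours, replicates 6, 7 and 9, lay inside the irradiated range. Bbc3 fell by 0.70 ± 0.17 (adjusted p = 0.0111) and 0.85 ± 0.17 (adjusted p = 0.00695). The cell cycle inhibitor Cdkn1a and the p53 ligase Mdm2, looked up after values were seen because they are the best known p53 targets, showed no call with 19 arrays. The 3 Cdkn1a probes were at 0.11, 0.25 and 0.04 (adjusted p = 0.742, 0.336 and 0.907), and the brighter Mdm2 probe was at -0.30 ± 0.13 (adjusted p = 0.113) and, with 17 arrays, at -0.45 ± 0.11 (adjusted p = 0.0152).

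In the list of double-strand break repair, 5 of 31 kept probes were higher and none lower with 19 arrays, and 2 were higher and 4 lower with 17. Over all probes the shares were 11.7% higher and 6.71% lower, and 8.81% and 8.80%, so counts this small are not read as a result about the list. Xrcc6, the Ku70 subunit that binds broken ends, was at 7.34 to 7.79 (median 7.48) after protons and 5.99 to 7.24 (median 7.06) in sham tumours, with no overlap. It rose by 0.55 ± 0.14 (adjusted p = 0.0117) and 0.37 ± 0.09 (adjusted p = 0.011). Its other kept probes were not called, and the brightest of them stood at 0.01 and -0.24. Rpa2, which coats single-stranded DNA, rose by 0.70 ± 0.17 and 0.49 ± 0.13. The other Rpa2 probe stood at -0.47 and -0.50, without a call (adjusted p = 0.0774 and 0.0834). Of the complex that senses and trims breaks, Rad50 was at -0.06 ± 0.18 and Mre11a at -0.01 ± 0.25 with 19 arrays (adjusted p = 0.84 and 0.99), and both were called lower with 17, at -0.33 ± 0.09 and -0.40 ± 0.12 (adjusted p = 0.0212 and 0.0278), while the other 2 Mre11a probes stood at 0.05 and 0.03. In the apoptosis list, the death promoter Bad rose by 0.63 ± 0.15 and 0.62 ± 0.16 and the initiator caspase Casp9 fell by 0.81 ± 0.19 and 0.82 ± 0.20. That list had 5 probes higher and 1 lower of 35 with 19 arrays, and 3 and 4 with 17, near the same shares of all probes.

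Among mitosis genes, probes were called higher and none lower. Of 27 mitosis probes, 7 were higher with 19 arrays, where 11.7% of all probes were, and 6 with 17, where 8.81% were, and the 6 called in both belonged to Cdc20 (3 probes), Birc5 (2 probes) and Aurkb. Cdc20, the activator of the anaphase-promoting complex, had levels at its most altered probe of 4.90 to 7.59 (median 6.93) after protons and 4.32 to 6.60 (median 4.67) in sham tumours. The groups overlapped, with sham replicate 9 the highest of its group. This probe rose by 1.65 ± 0.34 (adjusted p = 0.00511) and 1.44 ± 0.35 (adjusted p = 0.012), was detected in 3 of 9 sham tumours, and stood at -0.46 against acute controls (adjusted p = 0.282). Its other called probes, which were brighter, rose by 0.79 ± 0.20 and 0.69 ± 0.22 with 19 arrays and by 0.56 ± 0.13 and 0.39 ± 0.11 with 17. The brightest kept Cdc20 probe was not called, at 0.33 and -0.02 (adjusted p = 0.349 and 0.937). Birc5, survivin, rose by 1.08 ± 0.27 and 0.73 ± 0.17, and the kinase Aurkb by 0.90 ± 0.26 and 0.57 ± 0.16, with Aurkb at -0.08 against acute controls (adjusted p = 0.661). The brightest Birc5 probe was not called either, at 0.28 and -0.01 (adjusted p = 0.361 and 0.976). With 1 probe a gene, 2 of 17 mitosis genes were higher with 19 arrays, near the 11.7% of all probes. The counts above thus rested on genes with several probes. The Cdc20 promoter (chr4:118437294-118437593, minus strand) is shown because it holds TTTGAA, the cell cycle gene homology region core used by mitotic genes, at -18 from the start site, in capitals. These letters occurred in promoters of 20.2% of genes and of 11 of 14 matched mitosis genes, and not in the Birc5 window.
Cdc20: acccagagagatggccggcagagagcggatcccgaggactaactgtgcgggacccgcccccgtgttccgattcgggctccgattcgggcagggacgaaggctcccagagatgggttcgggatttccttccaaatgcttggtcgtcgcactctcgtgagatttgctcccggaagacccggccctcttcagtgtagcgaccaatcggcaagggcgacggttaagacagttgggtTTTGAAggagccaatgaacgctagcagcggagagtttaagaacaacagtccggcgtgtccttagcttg

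Histone probes were higher in 7 of 25 cases and lower in none with 19 arrays, and in 5 with 17, where 11.7% and 8.81% of all probes were higher. H2ac7, a replication-dependent H2A, was at 11.94 to 13.25 (median 12.72) after protons and 9.90 to 12.52 (median 11.18) in sham tumours. Sham replicate 9 again gave the highest sham level, which lay inside the irradiated range. It rose by 1.36 ± 0.28 (adjusted p = 0.0051) and 1.15 ± 0.26 (adjusted p = 0.00946), and against acute controls it was lower by the test, at -0.53 (adjusted p = 0.0114). A brighter H2ac7 probe was not called, at 0.10 and -0.01 (adjusted p = 0.603 and 0.945). The variant H2az1 rose by 0.76 ± 0.13 and 0.69 ± 0.14 and stood at -0.10 against acute controls (adjusted p = 0.46). Histone probes share sequence between near-identical copies. In the MYC target and ribosome biogenesis list, 5 of 31 probes were higher and none lower with 19 arrays. With 17 arrays 5 were higher and 3 lower, and the latter share was near the 8.80% of all probes that were lower. The pyrimidine synthesis enzyme Cad rose by 1.05 ± 0.20 and 0.82 ± 0.16, and Polr1b, a subunit of RNA polymerase I, by 0.84 ± 0.22 and 0.74 ± 0.23. The E-box CACGTG that MYC binds was in promoters of 7 of 18 matched genes of that list and of 8.09% of all genes, and not in those of Cad and Polr1b.

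A minority of extracellular matrix probes rose against sham x3 controls. Of 42 collagen and fibrillar matrix probes, 9 were higher and 1 lower with 19 arrays and 8 and 1 with 17, where 11.7% and 8.81% of all probes were higher. Fn1, fibronectin, was at 11.65 to 13.41 (median 12.71) after protons and 8.20 to 13.37 (median 11.32) in sham tumours. Sham replicate 9 was at 13.37 and replicates 6 and 7 at 10.04 and 8.20, so the group spanned more than the irradiated one. Fn1 rose by 1.62 ± 0.42 (adjusted p = 0.014) and 1.09 ± 0.29 (adjusted p = 0.0182), and all 4 of its kept probes lay between 0.47 and 1.09 in the 17-array fit. Col3a1, a fibrillar collagen, rose by 1.57 ± 0.35 and 1.24 ± 0.33, and Col6a1, of microfibrils, by 0.89 ± 0.21 and 0.90 ± 0.23. Against acute controls no probe of the list was higher, with Fn1 at -0.66 (adjusted p = 0.00786), Col3a1 at -1.08 (adjusted p = 0.00368) and Col6a1 at -0.42 (adjusted p = 0.0997). With the irradiated tumours numbered 0 to 6 alone none was higher, where 292 of all 15861 probes were. With 1 probe a gene, 2 of 22 genes were higher with 19 arrays, no more than the 11.7% of all probes. The fibroblast marker list had a mean level of 6.23 to 6.76 after protons and 6.13 to 6.54 in the 7 sham tumours other than replicates 6 and 7, and its part in these rises was not tested. S100a4, a calcium-binding protein of motile cells, rose by 0.98 ± 0.24 and 0.64 ± 0.14.

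Adhesion genes had 1 probe higher and 5 lower of 31 in each fit, where 6.71% and 8.80% of all probes were lower. Itga6, the laminin receptor subunit, was at 4.62 to 7.18 (median 6.27) after protons and 6.52 to 7.66 (median 7.34) in sham tumours. The ranges overlapped, and sham replicates 6 and 9 shared the lowest sham level. Itga6 fell by 0.99 ± 0.26 (adjusted p = 0.0143) and 1.08 ± 0.27 (adjusted p = 0.0145). Itgav, the vitronectin receptor subunit, fell by 0.59 ± 0.15 and 0.69 ± 0.16 at its most altered probe, and its 4 probes ran from -0.69 to 0.41 with 17 arrays. Itgb1, the beta subunit that pairs with both of these alpha chains, rose by 1.07 ± 0.24 with 17 arrays (adjusted p = 0.0107, and 0.00597 with 19), while its other probe stood at -0.38 (adjusted p = 0.0611). Against acute controls Itgb1 was at -0.48 (adjusted p = 0.105).

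Oxidative phosphorylation genes make most of the ATP of mitochondria. Of 30 oxidative phosphorylation probes, 9 were higher and none lower with 19 arrays and 7 were higher with 17, where 11.7% and 8.81% of all probes were higher. The median difference of the list was 0.27 and 0.16, against 0.02 and -0.03 over all probes. Cox5b, a subunit of cytochrome oxidase, was at 9.60 to 11.01 (median 10.76) after protons and 8.81 to 10.62 (median 9.21) in sham tumours. Sham replicate 9 was at 10.62 and overlapped with the irradiated tumours. Cox5b rose by 1.09 ± 0.23 (adjusted p = 0.00594) and 0.98 ± 0.24 (adjusted p = 0.0136) but stood at -0.50 against acute controls (adjusted p = 0.0214). Uqcrh of complex III rose by 0.97 ± 0.26 and 1.00 ± 0.28 and stood at -0.27 against acute controls (adjusted p = 0.291), and Ndufs3 of complex I by 0.61 ± 0.12 and 0.53 ± 0.11. With the irradiated tumours numbered 0 to 6 alone, 1 of these probes was higher, where 292 of all 15861 probes were. Of 30 hypoxia probes, 2 were lower with 19 arrays and 4 with 17, where 6.71% and 8.80% of all probes were lower, and none was higher. P4ha2, a collagen prolyl hydroxylase induced by HIF-1, accounted for 2 of them, and its larger fall was 0.98 ± 0.25 (adjusted p = 0.0122) and 0.91 ± 0.27 (adjusted p = 0.027). Keap1, the sensor that holds the antioxidant factor NRF2 in check, fell by 0.46 ± 0.11 and 0.53 ± 0.12, with its 4 probes between -0.53 and -0.33 in the 17-array fit, and stood at 0.08 against acute controls (adjusted p = 0.527).

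**Figure D4:**
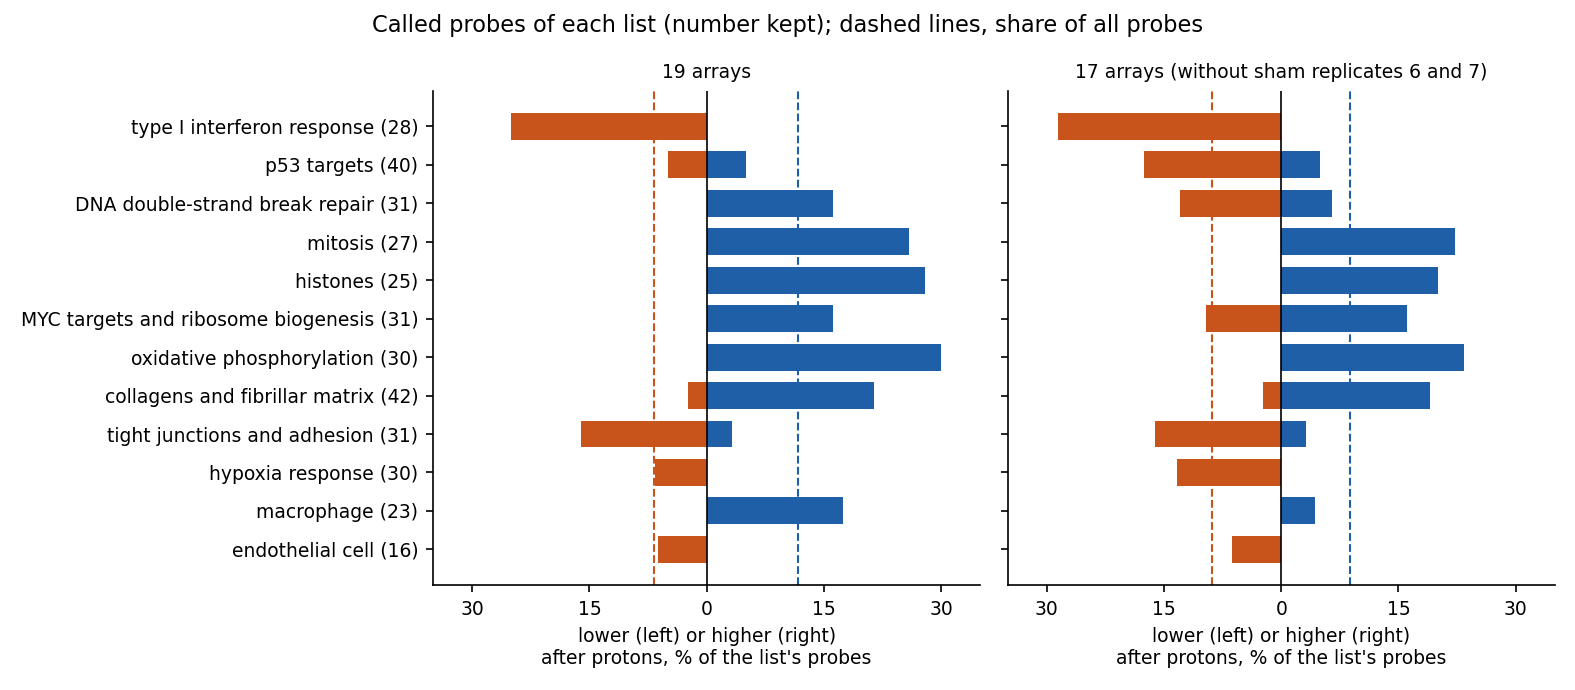
Share of each list's kept probes (number in brackets) called lower (left, orange) or higher (right, blue) after protons, in percent (x axis), in the 19-array fit and the 17-array fit; dashed lines mark the share of all 15861 probes. The interferon bar lies on the lower side (7 of 28, then 8 of 28) and the mitosis, histone and oxidative phosphorylation bars on the higher side in both panels.

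Mean levels of the immune and stromal marker lists overlapped between irradiated tumours and the sham tumours other than replicates 6 and 7. The macrophage list (23 kept probes) had 4 probes higher with 19 arrays and 1 with 17, where 11.7% and 8.81% of all probes were. Over its 28 probes, kept or not, the mean level was 6.95 to 7.83 after protons and 6.89 to 7.58 in those 7 sham tumours. C1qc, a complement subunit made by macrophages, was at 8.92 to 10.97 (median 10.14) after protons and 7.04 to 10.33 (median 9.08) in sham tumours, with overlap. C1qc rose by 1.16 ± 0.33 (adjusted p = 0.0206) and 0.84 ± 0.27 (adjusted p = 0.0395), and stood at 0.05 against acute controls (adjusted p = 0.905). Its partner C1qb rose by 1.23 ± 0.36 with 19 arrays and was at 0.94 ± 0.34 with 17 (adjusted p = 0.0559). T cell markers averaged 4.90 to 5.01 after protons and 4.87 to 5.04 in those sham tumours, levels near background. No kept probe of the T cell (6), neutrophil (5), natural killer (3) or mast cell (4) lists was called in either fit. Of all probes, 18.4% and 17.6% were called, so sets this small cannot show that these cells were unchanged. Sdc1 of the B and plasma cell list (1.16 and 1.15) and Pmp22 of the nerve list (1.45 and 1.37) were higher in both fits. Each had another kept probe without a call. Fscn1 of the dendritic list was called with 17 arrays alone (0.62, adjusted p = 0.043). The fibroblast list (19 kept probes) had 2 probes higher with 19 arrays and 1 with 17, where 11.7% and 8.81% of all probes were. The endothelial list had 1 of 16 probes lower in each fit, that of Egfl7, where 6.71% and 8.80% of all probes were. Its median difference went from -0.85 to -0.10 on leaving out sham replicates 6 and 7.

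Probes of 1 gene often disagreed. Among 3182 genes with more than 1 kept probe, 1123 had a called probe in the 17-array fit, all probes were called in the same direction for 129, and 24 had calls in opposite directions. Each gene value is therefore that of 1 probe, unless other probes are given. Probes that neither fit called were also kept for Casp9 (-0.12 with 17 arrays), Myl12b (-0.02), Tspan4 (-0.19) and Tgif1 (0.08). The same held for Gadd45a (0.25), Col3a1 (0.34) and Col6a1 (0.27).

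Whether the difference in old hosts was also larger or smaller than in adolescent hosts was tested with an interaction term over 38 arrays. Of 19730 probes, 2.34% were called, with 231 of more positive difference in old mice (1.17%) and 231 of more negative difference (1.17%). Without sham replicates 6 and 7 the counts were 93 and 211. In adolescent mice alone, protons against sham x3 gave 22 probes higher and 52 lower. For Dock10 the interaction (difference in old less difference in adolescent hosts) was -1.87 ± 0.33 (adjusted p = 0.00328). Without sham replicates 6 and 7 it was -1.87 (adjusted p = 0.00535), and the adolescent difference was -0.02 (adjusted p = 0.982). Plp2 differed by 1.30 ± 0.23 (adjusted p = 0.00328), and by 1.27 (adjusted p = 0.00563) without the pair, with an adolescent difference of -0.24 (adjusted p = 0.545). The interaction of Dnajc7 was -1.01 ± 0.16 (adjusted p = 0.0011) and -1.02 without the pair (adjusted p = 0.0012). That of Atf5 was -1.73 ± 0.29 (adjusted p = 0.00268) and -1.71 (adjusted p = 0.00484). Alyref differed by 1.71 ± 0.32 (adjusted p = 0.00442), and by 1.50 (adjusted p = 0.01) without the pair. Ide went from 1.89 ± 0.43 (adjusted p = 0.0165) to 1.55 (adjusted p = 0.039) and Itgb1 from 1.70 ± 0.34 (adjusted p = 0.00685) to 1.55 (adjusted p = 0.011). Among the interferon genes, Bst2 was at -1.16 ± 0.35 (adjusted p = 0.0644) and, without sham replicates 6 and 7, at -1.31 (adjusted p = 0.0406).

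With all 57 arrays normalized together, the levels of these genes showed which set departed from the others. Alyref averaged 11.49 ± 0.12 in adolescent sham acute (SD, n = 9), 11.64 ± 0.28 in adolescent sham x3 (n = 9) and 11.68 ± 0.27 in adolescent irradiated tumours (n = 10). In old mice it averaged 11.47 ± 0.13 in sham acute (n = 10), 9.39 ± 0.81 in sham x3 (n = 9) and 11.14 ± 0.51 in irradiated tumours (n = 10). The old sham x3 set was thus the low one, and the irradiated mean lay nearer to the old acute mean than to that of sham x3. Ide followed the same order in old mice, at 9.45 ± 0.29, 6.73 ± 1.10 and 9.04 ± 0.70, and Fn1 at 13.87 ± 0.26, 11.67 ± 1.28 and 13.22 ± 0.50. Bst2 and Dnajc7 had their highest mean in old sham x3 tumours, at 7.51 ± 0.58 and 9.60 ± 0.27, with irradiated tumours at 6.28 ± 0.71 and 8.60 ± 0.20 and acute tumours at 6.27 ± 0.48 and 8.44 ± 0.23. Plp2 and Dock10 differed from this, since their irradiated set was the extreme one, with Plp2 at 10.73 ± 0.19 against set means of 9.67 to 10.51 and Dock10 at 6.09 ± 0.59 against 6.88 to 8.03.

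**Figure D5:**
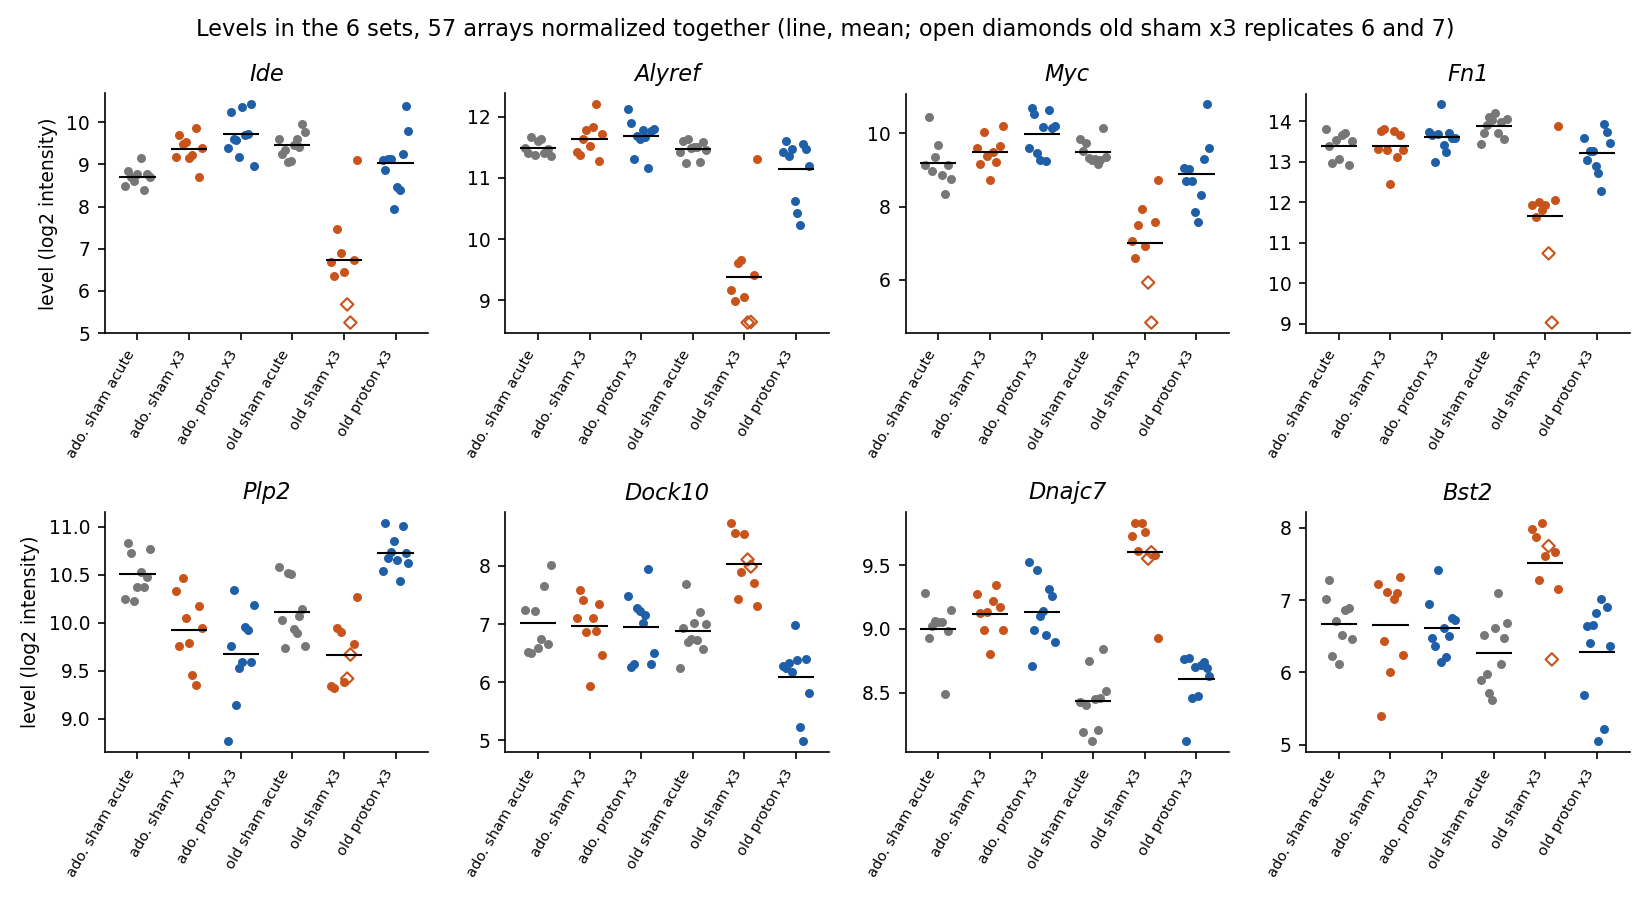
Level of 8 genes (y axes, log2 intensity, 57 arrays normalized together) in each tumour of the 6 sets (x axes, adolescent and old mice with sham acute, sham x3 or protons x3); lines are means and open diamonds old sham x3 replicates 6 and 7. For Ide, Alyref, Myc and Fn1 old sham x3 tumours have the lowest mean, for Bst2 and Dnajc7 they have the highest mean, and for Plp2 and Dock10 the old irradiated tumours have the highest and the lowest mean.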

How the data were processed

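Members and gene lists were chosen with earlier results of these data known. The 19 arrays of old mice on the x3 schedule entered the main comparison, grouped by sample titles and descriptions. The deposited table of the authors holds, per the file headers, the average signal (a bead intensity) and the detection p-value of 45281 probes on each array. These intensity values were neither background-corrected nor normalized (array medians 114 to 146). The authors' processed values of the series matrix, deposited on a linear intensity scale, were a straight line of the raw intensity on each array and served as an alternative. Per the submitters' processing notes GenomeStudio was used, with no version given.

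Background was corrected with neqc of limma 3.58.1 in R 4.3.3, which estimates it with the help of detection p-values, uses an offset of 16, quantile-normalizes and returns log2 values. This understates changes of dim probes. Probes were kept when the detection p was under 0.05 on at least 9 of the 19 arrays, which left 15861 (35%). Groups were compared with lmFit and eBayes and the Benjamini-Hochberg adjustment over all kept probes, and printed SEs are those of the fit. All adjusted p-values in the text are limma's. The 17-array fit used the same probes after renormalization. The interaction fit kept probes detected on at least 9 of 38 arrays. Numbers of arrays limit the precision.

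Genes were named through the platform annotation given, updated by Entrez identifiers, for 34885 probes with 1 gene. There were 18 probes with several genes, which were not named, and 10378 unnamed. Named genes were, in each direction, the 15 with the largest difference among those called in both fits (1 probe a gene), the 10 with the smallest adjusted p in the 17-array fit, up to 4 members of each list and the 5 largest that also passed the interaction test, and the text describes a part of them. Promoters were RefSeq's on GRCm38.p6. No arrays held identical values (highest correlation of a pair 0.994). Scripts were tested on simulated data. Alternatives covered background, normalization, filters, arrays, weights, covariate, block, thresholds and tests. Those added after seeing the data were controls without replicates 6, 7 and 9, and list counts for a part of the irradiated arrays and for acute controls. Figures were drawn with matplotlib 3.10.9.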

Additional observations from a re-analysis of the deposited data

Results flagged for a closer look

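Levels of 75 probes chosen for the text from those named by rule were searched for a single tumour far from the rest of its group. The detected share, the median intensity and the mean correlation of the arrays were searched likewise. Other printed probes were not searched. Of 156 sets of values, 20 had such a tumour, where chance gives about 7.8 at 1 in 20, and the sets are not independent. Of these, 15 were sham replicate 9. Its log2 levels stood far above the sham group for Alyref 10.66 (median 8.35), Aup1 7.77 (median 5.33), Bad 8.68 (median 7.66), Calu 8.64 (median 6.27), Col6a1 10.93 (median 9.62), Erg28 8.52 (median 6.25), Hspbp1 7.09 (median 5.88), Msn 10.15 (median 6.86), Pld3 7.93 (median 6.91), Smarcc1 8.53 (median 5.74), Uqcrh 11.93 (median 10.46) and Ybx3 7.50 (median 4.97). They stood far below it for Dnajc7 8.10 (median 8.83), Gm10125 8.08 (median 9.50) and Gm7609 5.79 (median 7.38). In the irradiated group, replicate 8 was low for Csnk1g1 at 4.70 (median 6.24), replicate 2 low for Dnajc7 at 7.27 (median 7.85), replicate 1 high for Dpysl2 at 5.15 (median 4.45) and replicate 10 low for Tspan4 at 7.94 (median 8.27). Irradiated replicate 9 had the lowest mean correlation of its group with the other arrays, 0.932 (group median 0.952).

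By the interaction test, the difference of irradiated from sham x3 tumours was not the same in old and adolescent mice for 231 probes in the positive and 231 in the negative direction. Log2 effects in old minus adolescent mice are given for those of the 75 probes that passed it. They were positive for Alyref 1.71, Aup1 1.74, Cdc20 1.70, Cox5b 0.91, Cpsf1 0.84, Erg28 1.61, Gsn 1.80, Gstp1 1.22, H2ac7 1.25, Hspbp1 1.27, Ide 1.89, Itgb1 1.70, Myl12b 0.78, Pld3 0.89, Plp2 1.30, Tgif1 1.62, Wdr46 1.31 and Ybx3 2.09. They were negative for Atf5 -1.73, Camk2d -1.08, Ddx6 -1.19, Dnajc7 -1.01, Dock10 -1.87, Dock9 -0.92, Dpysl2 -1.63, Fxr2 -1.08, Gm10125 -1.43, Gm7609 -1.57, Hgf -1.33, Itgav -0.67 and Kmt5c -1.08. Without sham replicates 6 and 7 the 2 counts were 93 and 211. Of these 31 genes, 22 also passed without that pair, while Aup1, Cdc20, Cox5b, Erg28, Gsn, Hgf, Myl12b, Tgif1 and Ybx3 did not (9 genes).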

How the results depend on the processing

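Of 75 probes chosen for the text from those named by rule, 74 were called in both fits. Of these, 69 kept their call whichever single array was left out. Named probes and genes below are those 75. Over 2898 values of named probes under the alternatives other than acute controls, none changed sign, and 324 lost significance. The naming rules drew on calls of these fits, and the alternatives reuse the same arrays. These counts were therefore largely fixed in advance and are no test. Leaving out single arrays gave 1266 to 2793 higher and 731 to 1698 lower probes, with the fewest calls without sham replicate 2 (2020) and the most without sham replicate 9 (4491). Lower numbers, higher then lower, came from the irradiated tumours numbered 69 to 71 (655 and 382), those numbered 0 to 6 (292 and 238), no filter on dim probes (1089 and 684), a minimum fold change of 1.2 (18 and 12) and the methods' one-way ANOVA with Bonferroni adjustment (7 and 6; with Benjamini-Hochberg 1656 and 985). Larger numbers came from array weights (3270 and 3189), all 57 arrays in 6 sets (3464 and 2501) and the removal of sham replicates 6, 7 and 9 (2610 and 2593). Median scaling gave 76 and 2056, acute controls 1833 and 1784. Processed values of the series matrix gave 1724 and 861, and the detected share as a covariate 2296 and 1570. The cause of these shifts was not tested. The interaction counts became 93 more positive without sham replicates 6 and 7, 836 and 592 with all 57 arrays and 83 and 124 with no filter. Replicate numbers did not pair the samples (correlations of deviations -0.222 to 0.352, and replicate 9 alone matched its own number best, a hint from the data), and with the replicate number as a block there were 1731 higher and 870 lower probes. The detected share differed by -0.268 percentage points with all arrays and by 0.77 without sham replicates 6 and 7 (exact permutation p = 0.483).

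List counts changed as follows. Without sham replicates 6 and 7, 8.81% of all probes were higher and 8.80% lower. In that fit p53 targets had 7 lower, break repair 2 higher and 4 lower and hypoxia 4 lower. Without 6, 7 and 9, the shares of all probes were 16.5% and 16.3%. There p53 targets had 9, repair 6, hypoxia 8 and interferon 6 lower, and collagens 14 higher. With the irradiated tumours numbered 0 to 6, 292 of all 15861 probes were higher and 238 lower. In that setting interferon had 3 lower, p53 targets 0 and adhesion 1. Repair had 1, mitosis 1, histones 2, MYC targets 1, oxidative phosphorylation 1 and collagens 0 higher. With 1 probe a gene, repair had 2 of 18, mitosis 2 of 17, MYC targets 3 of 22 and collagens 2 of 22 higher. Adhesion had 3 of 20 and hypoxia 1 of 19 lower. These used the 19-array fit, in which 11.7% of all probes were higher and 6.71% lower. Against acute controls, 11.6% of all probes were higher and 11.2% lower. There interferon had 0, p53 targets 5, repair 4, adhesion 3 and hypoxia 10 lower. Repair had 1, histones 0, MYC targets 2 and collagens 0 higher. Named genes whose sign turned against acute controls stood at, among the rises, Alyref -0.33, Aup1 -0.09, Aurkb -0.08, Calu -0.57, Cdc20 -0.46, Col3a1 -1.08, Col6a1 -0.42, Cox5b -0.50, Erg28 -0.55, Fn1 -0.66, Gadd45a -0.65, Gsn -0.71, H2ac7 -0.53, H2az1 -0.10, Ide -0.42, Itgb1 -0.48, Msn -0.99, Myc -0.61, Smarcc1 -0.47, Srm -1.06, Tgif1 -0.10, Uqcrh -0.27 and Ybx3 -1.83, and among the falls, Abi3 0.14, Bst2 0.02, Cdh1 0.01, Csnk1g1 0.67, Cygb 0.29, Dnajc7 0.17, Dock9 0.03, Gm10125 0.09, Gm7609 0.40, Hgf 0.02, Keap1 0.08, Lilra6 0.31, Podxl 0.03 and Tm6sf1 0.27. Dim probes limit some values, since those of Ybx3 and Cdc20 were detected in 3 of 9 sham tumours.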
